A study of Homo sapiens with 6 samples.

Results

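The genes examined here encode 10 enzymes and chaperones that fold, hydroxylate and crosslink collagen: the lysyl oxidases LOX, LOXL1, LOXL2, LOXL3 and LOXL4, the lysyl hydroxylases PLOD1 and PLOD2, the prolyl 4-hydroxylase alpha subunits P4HA1 and P4HA2, and the collagen chaperone SERPINH1. They were taken by gene symbol from a table of 61806 genes, which held exactly 1 entry for each, and all 10 had enough counts to be tested. RNA was sequenced in 3 libraries of wild-type HFF human foreskin fibroblasts irradiated with ultraviolet B (UVB) at 40 mJ per cm2 and given 10 µM sauchinone, a plant lignan, and in 3 libraries of the same culture given the same UVB dose without the compound (vehicle, per the labels' protocols). Cells were kept for 48 h after irradiation. The protocols describe addition of sauchinone after irradiation and a version with addition beforehand as well, and do not say which one these libraries came from. HFF is a single culture from a cell bank, and other fibroblasts were not analysed here. Nothing in the labels says that replicates were separate cultures, so p-values measure the spread between these libraries, which may be technical. Unirradiated cells were not analysed here.

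Collagen is hydroxylated and folded inside the endoplasmic reticulum and crosslinked after secretion. Prolyl 4-hydroxylase, a complex of an alpha subunit with the P4HB protein, makes the hydroxyproline that holds the triple helix together. Lysyl hydroxylases make the hydroxylysine that takes part in crosslinks and carries sugars, and PLOD2 is known for acting on the ends of the chains, the telopeptides. SERPINH1, also called HSP47, binds the folded procollagen helix on its way to the Golgi. Outside the cell, copper-dependent lysyl oxidases oxidise lysine and hydroxylysine to aldehydes that join collagen, and also elastin, into crosslinked fibres. LOX, P4HA1, P4HA2 and PLOD2 are known as targets of the hypoxia-inducible factors, and SERPINH1 as a target of the heat shock factor.

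Promoters were searched because these known regulators have short recognition letters that can be looked for. Sequence is shown for 4 of the genes just named, each with a match, and not for P4HA2, which had none. RefSeq starts on GRCh38.p14 were used for 9 of the 10 genes, 13 starts in all. LOXL2 was left out of this search by choice, so its promoter was not examined. The 250 bases before each start were searched on both strands. The letters sought were ACGTG, the core of the hypoxia response element, and GAANNTTC, a pair of heat shock element units. ACGTG also lies inside CACGTG, the E-box, so the 2 motifs overlap. Capitals mark the matches, each sequence runs 5′ to 3′ on the strand of its gene, and the deposited gene starts lie upstream of the RefSeq starts, within or before these windows. The LOX window is chr5:122078260-122078509 (minus strand), that of P4HA1 chr10:73096867-73097116 (minus), that of PLOD2 chr3:146161185-146161434 (minus) and that of SERPINH1 chr11:75562003-75562252 (plus).
LOX: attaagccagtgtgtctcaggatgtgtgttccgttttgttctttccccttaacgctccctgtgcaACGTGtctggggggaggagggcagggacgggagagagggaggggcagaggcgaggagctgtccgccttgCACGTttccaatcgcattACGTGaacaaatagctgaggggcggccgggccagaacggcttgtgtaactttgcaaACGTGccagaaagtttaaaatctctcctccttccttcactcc
P4HA1: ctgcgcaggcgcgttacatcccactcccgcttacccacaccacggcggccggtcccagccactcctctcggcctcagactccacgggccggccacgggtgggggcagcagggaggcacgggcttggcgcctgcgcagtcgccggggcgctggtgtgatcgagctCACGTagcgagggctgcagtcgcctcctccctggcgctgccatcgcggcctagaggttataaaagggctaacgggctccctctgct
PLOD2: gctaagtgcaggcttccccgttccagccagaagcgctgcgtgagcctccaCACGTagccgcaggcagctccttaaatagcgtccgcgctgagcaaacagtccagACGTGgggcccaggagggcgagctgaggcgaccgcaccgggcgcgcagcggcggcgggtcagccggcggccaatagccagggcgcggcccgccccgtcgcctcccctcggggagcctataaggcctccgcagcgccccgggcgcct
SERPINH1: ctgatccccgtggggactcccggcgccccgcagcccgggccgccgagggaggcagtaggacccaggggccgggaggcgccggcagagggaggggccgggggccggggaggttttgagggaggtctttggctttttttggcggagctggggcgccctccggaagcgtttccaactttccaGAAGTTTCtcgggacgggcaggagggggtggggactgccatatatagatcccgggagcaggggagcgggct
The LOX window held 4 matches to ACGTG, the PLOD2 window 2 and the P4HA1 window 1. The SERPINH1 window held 1 match to GAANNTTC, and a second RefSeq start of SERPINH1 had 1 match to ACGTG. Matches to ACGTG were found in 6 of the 13 windows, against 18.5% of 35116 windows of the same length over all RefSeq starts. They belonged to 4 of the 9 genes, a count with no background here, since a gene counted if any of its windows matched. The windows of the other 2 LOX starts lie inside the LOX gene, overlap and hold the same site, so the 13 windows are not independent. A match to GAANNTTC was found in 1 of the 13 windows, against 5.78% of all. LOXL1, LOXL3, LOXL4, PLOD1 and P4HA2 had neither. A match is a description of letters, and binding was not measured.

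The total count per library was 20984851 to 23076388, and 24223 to 25259 genes had at least 1 count. Markers of fibroblasts were abundant, with a summed level of 12970 to 13340 CPM (counts relative to the total count of the library, without TMM scaling) in UVB + sauchinone libraries and 17270 to 19010 CPM in UVB libraries, and 9 of the 10 fibroblast markers fell. Of the other markers, endothelial ones summed to 0.647 to 0.829 CPM with sauchinone and 0.607 to 0.763 CPM in UVB, and CDH5 and KDR were at 0 in all libraries. Melanocyte markers summed to 1.47 to 1.66 CPM with sauchinone and 1.82 to 2.49 CPM in UVB, with DCT at 0. Keratinocyte markers summed to 17.2 to 19.3 CPM with sauchinone and 16.2 to 16.8 CPM in UVB, and KRT5, KRT1 and DSG3 were at 0. Most of that sum was KRT10, with TMM-scaled means of 12.9 CPM with sauchinone and 11.1 CPM in UVB. Of 3 tested keratinocyte markers 1, KRT15, was called lower and none higher. Pericyte and smooth muscle markers summed to 176.5 to 192.1 CPM with sauchinone and 349.4 to 353.0 CPM in UVB, with 5 of 7 tested markers lower, none higher and none of the 8 listed at 0. Their part in the results below was not tested, and in bulk RNA fewer cells of a type cannot be told apart from less RNA per cell.

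With sauchinone, 7 of the 10 genes fell, 2 rose and 1 did not pass (edgeR's quasi-likelihood test, Benjamini-Hochberg adjusted p under 0.05 over 15704 genes). Over all genes tested 24.9% were called lower, 24.7% higher and 49.6% either way, so the share lower was above the background and the share higher was not. All 5 lysyl oxidases and SERPINH1 fell, while the hydroxylases split, PLOD2 and P4HA2 being higher, P4HA1 lower and PLOD1 uncalled. The median log2 fold change, here always UVB + sauchinone over UVB, was -0.26 for the 10 genes and 0.0071 for all genes tested. In 8 of the 10 genes the libraries of the groups did not overlap, against 57.1% of all genes. None of the 10 changed 2-fold, whereas 7.31% of all genes were called at least 2-fold lower and 4.25% at least 2-fold higher.

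**Figure D1:**
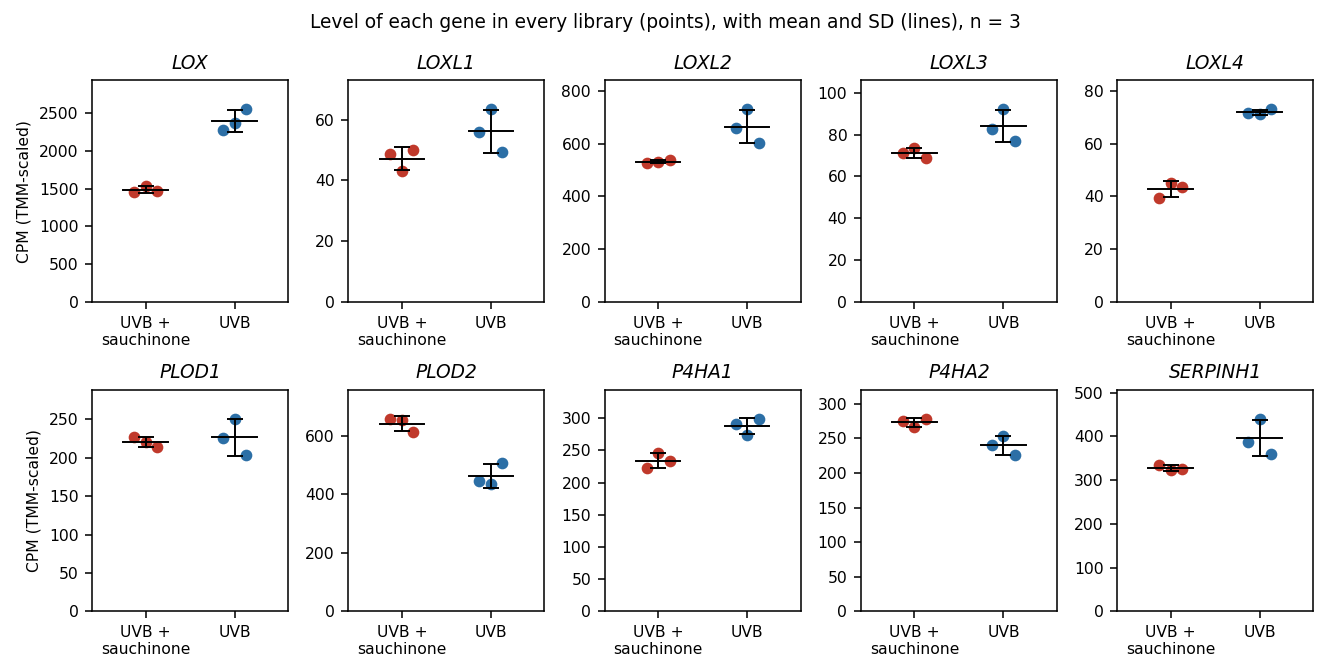
TMM-scaled CPM of each of the 10 genes in the 3 UVB + sauchinone libraries (left, red) and the 3 UVB libraries (right, blue), with mean and SD as lines. LOX, with a mean of 1489 CPM with sauchinone against 2399 CPM in UVB, and LOXL4, with 42.7 CPM with sauchinone against 71.9 CPM in UVB, are the lowest of the 10 as a share of their UVB level, and PLOD2, with 641.8 CPM with sauchinone against 462.8 CPM in UVB, lies above it.

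The lysyl oxidases are described first. LOX, the founding member of the family (ENSG00000113083, chromosome 5 at 122063195 to 122078413, minus strand, GRCh38), had 1455, 1538 and 1474 CPM in UVB + sauchinone replicates 1, 2 and 3, against 2276, 2366 and 2554 CPM in UVB replicates 1, 2 and 3 (CPM of single genes are scaled by TMM). Every UVB library stood far above every sauchinone library, with a gap wider than the range within either group. LOX was at 62.1% of its UVB level, a log2 fold change of -0.69 ± 0.064 (SE; edgeR adjusted p = 9.1e-09), with a 95% interval of -0.82 to -0.55. It is among the most abundant messages of these cells, since 99.8% of tested genes had a lower mean CPM. LOXL4, a family member with scavenger receptor domains (ENSG00000138131, chromosome 10 at 98247690 to 98268194, minus strand), had 39.4, 45.2 and 43.5 CPM in UVB + sauchinone replicates 1, 2 and 3, against 71.4, 71.3 and 73.0 CPM in UVB replicates 1, 2 and 3. The UVB libraries were nearly equal and the groups lay well apart. LOXL4 fell by 0.75 ± 0.085 on the log2 scale (edgeR adjusted p = 1.8e-07), to 59.4% of its UVB level.

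The remaining lysyl oxidases fell less. LOXL2, which crosslinks collagen IV of basement membranes among other substrates, had 528.4, 530.4 and 538.8 CPM in UVB + sauchinone replicates 1, 2 and 3, against 660.1, 731.0 and 603.5 CPM in UVB replicates 1, 2 and 3. The groups did not overlap, and the sauchinone libraries were close together while the UVB libraries spread 1.21-fold. Its log2 fold change of -0.32 ± 0.072 (edgeR adjusted p = 0.00079) became -0.022 (edgeR adjusted p = 0.84) when the trend of counts with genomic span was removed. LOXL2 spans 128.4 kb, within the longest of 5 equal groups of genes by span, in which 58.5% of genes were called lower.

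LOXL3, a family member needed for normal development of cartilage and palate in mice, had 71.3, 73.7 and 68.6 CPM in UVB + sauchinone replicates 1, 2 and 3, against 82.8, 92.2 and 76.9 CPM in UVB replicates 1, 2 and 3. LOXL1, which is required for elastic fibre upkeep in mice, had 48.65, 42.95 and 49.96 CPM in UVB + sauchinone replicates 1, 2 and 3, against 55.9, 63.5 and 49.3 CPM in UVB replicates 1, 2 and 3. The LOXL3 groups were separated by a small gap, while UVB replicate 3 of LOXL1 lay inside the range of the sauchinone libraries. The log2 fold changes were -0.24 ± 0.085 for LOXL3 (edgeR adjusted p = 0.024) and -0.25 ± 0.098 for LOXL1 (edgeR adjusted p = 0.037).

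Both calls lay near the threshold and were lost in 4 of the 6 fits with 1 library left out. For LOXL3 the log2 fold change was -0.235 without UVB + sauchinone replicate 1, -0.21 without UVB + sauchinone replicate 3, -0.25 without UVB replicate 1 and -0.17 without UVB replicate 2 (edgeR adjusted p = 0.061 to 0.11). For LOXL1 it was -0.27 without UVB + sauchinone replicate 1, -0.19 without UVB + sauchinone replicate 2, -0.26 without UVB replicate 1 and -0.16 without UVB replicate 2 (edgeR adjusted p = 0.073 to 0.18). With the GC trend removed both passed, at -0.42 for LOXL3 and -0.54 for LOXL1. The 2 genes also share their position with other genes, and whether the authors' counting used strand is not given in the sources used here. LOXL1-AS1, antisense to LOXL1 over 2260 bases, held counts equal to a median of 52.3% of those of LOXL1 and fell by 0.40 on the log2 scale (edgeR adjusted p = 0.0031). DOK1 and HTRA2, which overlap LOXL3 on the opposite strand, held 21.9% and 19.7% of its counts and rose by 0.39 and 0.66 (edgeR adjusted p = 0.010 and 8.2e-05). ENTPD4, in the same orientation as LOXL2 and overlapping it by 39546 bases, held 18.4% of the counts of LOXL2, and did not pass (-0.070, edgeR adjusted p = 0.49).

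Per length, LOX made up most of the family. The 5 lysyl oxidases summed to 397.0, 405.3 and 401.5 FPKM (the deposited value, scaled by exonic size and by total count) in UVB + sauchinone replicates 1, 2 and 3, against 564.8, 589.1 and 597.1 FPKM in UVB replicates 1, 2 and 3. LOX supplied 67.2% ± 0.66 of that sum with sauchinone and 72.2% ± 2.56 in UVB (SD, n = 3 each), and LOXL2 supplied 22.5% ± 0.49 with sauchinone and 18.7% ± 1.92 in UVB. The share of LOX was lower and that of LOXL2 higher in every sauchinone library. These shares keep any trend with GC content or span. The log2 fold changes of LOX and LOXL2 were -0.53 and -0.54 with the GC trend removed. With the span trend removed they were -0.87 and -0.022. The ratio of LOXL4 to LOXL3, taken within each library and so free of scaling between libraries, had a mean log2 value of -0.41 ± 0.10 with sauchinone and 0.11 ± 0.15 in UVB, without overlap. No test was run on these shares and ratios.

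**Figure D2:**
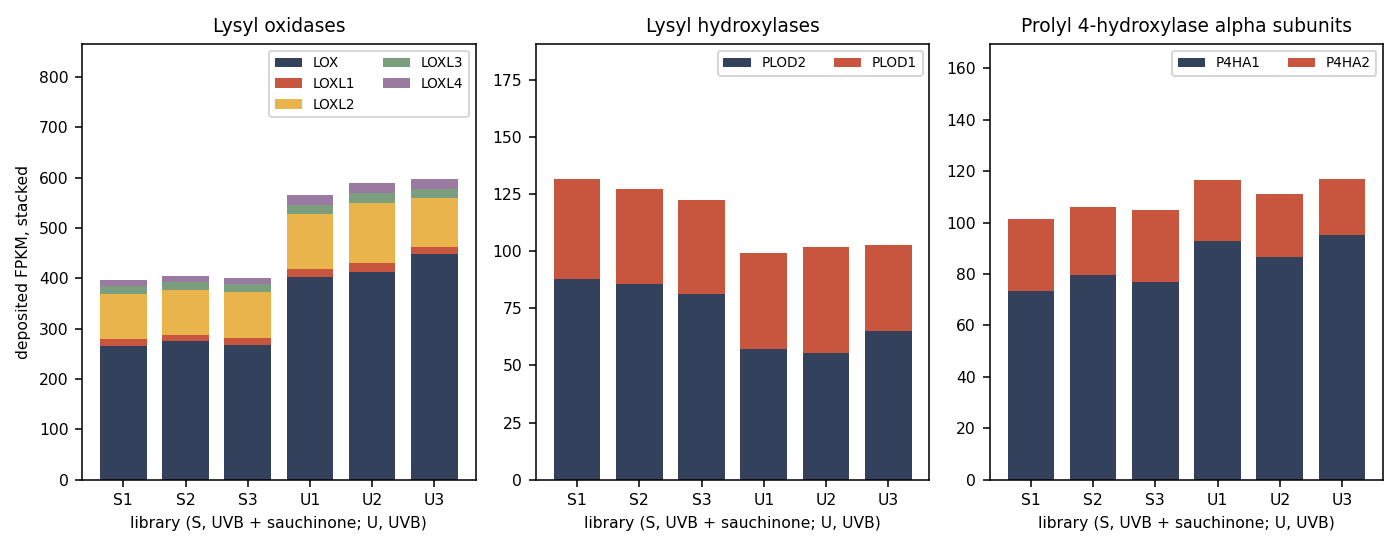
Deposited FPKM of the lysyl oxidases, the lysyl hydroxylases and the prolyl 4-hydroxylase alpha subunits, stacked for each library, with UVB + sauchinone libraries (S1 to S3) left of UVB libraries (U1 to U3). The lysyl oxidase stacks reach 397.0 to 405.3 FPKM with sauchinone and 564.8 to 597.1 FPKM in UVB, and the share of PLOD2 and of P4HA2 in their stacks is larger with sauchinone.

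Of the lysyl hydroxylases, PLOD2 rose and PLOD1 did not pass. PLOD2 (ENSG00000152952, chromosome 3 at 146069440 to 146163653, minus strand) had 659.2, 653.0 and 613.1 CPM in UVB + sauchinone replicates 1, 2 and 3, against 444.1, 435.4 and 508.9 CPM in UVB replicates 1, 2 and 3. All sauchinone libraries stood above all UVB libraries, and UVB replicate 3 was the nearest to them. PLOD2 was 1.39-fold higher, or 0.47 ± 0.072 as a log2 fold change (edgeR adjusted p = 1.1e-05). It rose within the longest group of genes by span, where 7.99% of genes were called higher, and its log2 fold change was 0.64 with the span trend removed.

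PLOD1, the lysyl hydroxylase of the helical part of collagen (ENSG00000083444, chromosome 1 at 11934205 to 11975538, plus strand), had 226.9, 220.6 and 213.3 CPM in UVB + sauchinone replicates 1, 2 and 3, against 225.3, 250.9 and 203.1 CPM in UVB replicates 1, 2 and 3. The sauchinone libraries lay inside the UVB range. The log2 fold change was -0.040 ± 0.078 (edgeR adjusted p = 0.70), with a 95% interval of -0.20 to 0.12, that is 0.869-fold to 1.09-fold. Removal of the GC trend gave -0.23, which passed (edgeR adjusted p = 0.0011), and without UVB replicate 2 the value was 0.037. PLOD2 supplied 66.9% ± 0.33 of the summed FPKM of PLOD1 and PLOD2 with sauchinone and 58.6% ± 4.49 in UVB, without overlap between the groups. PLOD3, the third gene of this family and the one with a glycosyltransferase activity, averaged 90.6 ± 6.59 CPM with sauchinone and 83.7 ± 10.8 CPM in UVB, and its log2 fold change of 0.12 did not pass (edgeR adjusted p = 0.32).

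The alpha subunits of prolyl 4-hydroxylase moved in opposite directions. P4HA1, the main alpha subunit of most tissues (ENSG00000122884, chromosome 10 at 73007217 to 73096974, minus strand), had 222.7, 245.6 and 234.0 CPM in UVB + sauchinone replicates 1, 2 and 3, against 290.7, 274.3 and 299.4 CPM in UVB replicates 1, 2 and 3. P4HA2 (ENSG00000072682, chromosome 5 at 132190147 to 132295315, minus strand), the alternative subunit, had 274.5, 266.2 and 278.5 CPM in UVB + sauchinone replicates 1, 2 and 3, against 240.5, 253.1 and 225.4 CPM in UVB replicates 1, 2 and 3. Neither gene overlapped between the groups, P4HA1 being lower and P4HA2 higher in every sauchinone library. P4HA1 fell by 0.30 ± 0.071 on the log2 scale (edgeR adjusted p = 0.0013), and P4HA2 rose by 0.19 ± 0.071 (edgeR adjusted p = 0.031).

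The fall of P4HA1 no longer passed with the trend with span removed (-0.15, edgeR adjusted p = 0.063) or with that of GC content removed (-0.095, edgeR adjusted p = 0.17). The rise of P4HA2 was 0.39 with the span trend removed, and its call, near the threshold, was lost in 4 of the 6 fits with 1 library left out. There the value was 0.19 without UVB + sauchinone replicate 1, 0.18 without UVB + sauchinone replicate 3, 0.19 without UVB replicate 1 and 0.14 without UVB replicate 3 (edgeR adjusted p = 0.060 to 0.11). Within each library, where scaling cancels, the log2 ratio of P4HA1 to P4HA2 per length was 1.41, 1.595 and 1.46 in UVB + sauchinone replicates 1, 2 and 3. In UVB replicates 1, 2 and 3 it was 1.99, 1.83 and 2.12. A trend with GC content does not cancel in such a ratio. With that trend removed P4HA1 was at -0.095 and P4HA2 at 0.14, the latter still called. P4HA1 was the larger of the pair per length in every library. It supplied 73.7% ± 1.28 of their summed FPKM with sauchinone and 79.7% ± 1.64 in UVB. This rests on the exonic sizes of the whole genes, 3093 bases for P4HA1 and 10128 for P4HA2, and transcript lengths were not measured. Before that division, in CPM, P4HA2 was above P4HA1 in every sauchinone library and below it in every UVB library. P4HB, the beta subunit shared by both, averaged 955.6 CPM with sauchinone and 853.6 CPM in UVB, and its log2 fold change of 0.16 did not pass (edgeR adjusted p = 0.053).

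SERPINH1 (ENSG00000149257, chromosome 11 at 75562056 to 75572783, plus strand) fell slightly. It had 334.8, 322.2 and 326.3 CPM in UVB + sauchinone replicates 1, 2 and 3, against 388.1, 440.8 and 360.5 CPM in UVB replicates 1, 2 and 3. The groups did not overlap, with UVB replicate 3 the closest to the sauchinone libraries. The log2 fold change of -0.27 ± 0.075 (edgeR adjusted p = 0.0042) was -0.49 with the trend with span removed and -0.50 with that of GC content removed. SERPINH1 is short, at 10.7 kb, and in its group of genes by span 11.8% were called lower and 35.5% higher.

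**Figure D3:**
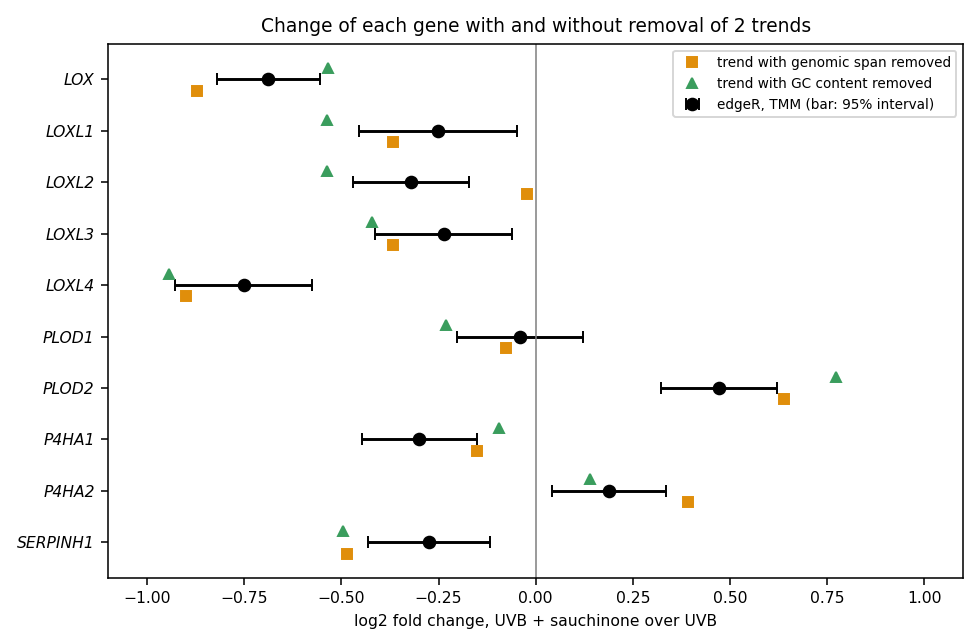
Log2 fold change of each gene, UVB + sauchinone over UVB, from edgeR with TMM (black, bar 95% interval), and after removal of a trend with genomic span (orange squares) or GC content (green triangles). Each gene keeps its side of 0 at every setting drawn, but LOXL2 moves close to it, at -0.022, with span removed, and P4HA1 moves to -0.095 with GC content removed.

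Compared per length, the order of the genes changed in places between the groups. With sauchinone the deposited FPKM ran LOX at 269.8, LOXL2 at 90.2, PLOD2 at 84.9, P4HA1 at 76.7, SERPINH1 at 52.9, PLOD1 at 42.0, P4HA2 at 27.4, LOXL3 at 16.0, LOXL1 at 13.2 and LOXL4 at 12.0, and of these neighbours only LOXL1 and LOXL4 overlapped. In UVB libraries PLOD2, at 59.4 FPKM, stood below P4HA1 (91.6) and overlapped SERPINH1 (62.0), and LOXL4, at 19.7 FPKM, stood first in an overlapping run with LOXL3 (18.3) and LOXL1 (15.2). PLOD2 thus lay above P4HA1 in every sauchinone library and below it in every UVB library, per length. In CPM PLOD2 was above P4HA1 in every library of both groups. Positions in this order depend on the exonic sizes of the whole genes, and transcript lengths were not measured.

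Several of the genes shared an order of the UVB libraries that the groups do not explain. Of the 7 genes with a transcript GC content over 50%, 6 were highest in UVB replicate 2 and lowest in UVB replicate 3, the exception being LOXL4. The 3 genes under 50%, PLOD2 (36.1%), P4HA1 (40.2%) and LOX (42.4%), were highest in UVB replicate 3. The same held across the transcriptome, where the median log2 ratio of UVB replicate 3 to UVB replicate 2 was 0.27 in the genes of lowest GC content (27.5% to 41.9%) and -0.25 in those of highest GC content (57.5% to 73.8%), out of 5 equal groups. The median log2 fold change with sauchinone was -0.21 in the lowest group and 0.25 in the highest. The rise of PLOD2 and the falls of LOXL1, LOXL2, LOXL3, LOXL4 and SERPINH1 thus ran against the median of their own groups. The falls of P4HA1, in the lowest group, and of LOX, in the next (median -0.12), went the same way as those medians. With the GC trend removed P4HA1 was at -0.095, uncalled, and LOX at -0.53, still called.

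Without removal of any trend, the substrates of these enzymes fell further than most of the enzymes. Of 18 tested collagen chain genes 17 fell and none rose, with a median log2 fold change of -0.74. With the span trend removed 14 were called lower and 1 higher. There COL3A1 was at -1.18 and COL6A3 at -0.80, against -0.87 for LOX, -0.90 for LOXL4 and -0.49 for SERPINH1. COL3A1, a fibrillar collagen of skin, averaged 913.6 ± 38.5 CPM with sauchinone and 1992 ± 24.7 CPM in UVB (SD, n = 3 each), and COL6A3, a chain of microfibrillar collagen VI, fell by 0.95 ± 0.064, or 0.56 with the exonic size trend removed. COL4A2, of basement membranes, was the one that did not pass (-0.15, edgeR adjusted p = 0.097), and it was called higher, at 0.43 and 0.20, when a trend with span or exonic size was removed. It was called lower, at -0.22, without UVB replicate 3 and, at -0.28, with the GC trend removed. COL1A1, the main chain of type I collagen, averaged 1800 CPM with sauchinone and 3217 CPM in UVB. Relative to COL1A1 within each library, 8 of the 10 enzyme genes were higher in all sauchinone libraries, close to the 74.5% of all tested genes for which this held, and none was lower in all of them (4.48% of all genes). PLOD2 gained most, with a mean log2 ratio of -1.26 ± 0.093 with sauchinone and -2.57 ± 0.23 in UVB. The exceptions, whose libraries overlapped, were LOX, at 0.41 ± 0.068 with sauchinone and 0.26 ± 0.19 in UVB, and LOXL4, at -4.08 ± 0.11 with sauchinone and -4.16 ± 0.13 in UVB. Relative to COL1A2, the other type I chain, LOX again overlapped, while LOXL4 was lower without overlap, at -5.19 ± 0.083 with sauchinone and -5.02 ± 0.071 in UVB. The share of all genes lower in this way relative to COL1A2 was not computed.

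**Figure D4:**
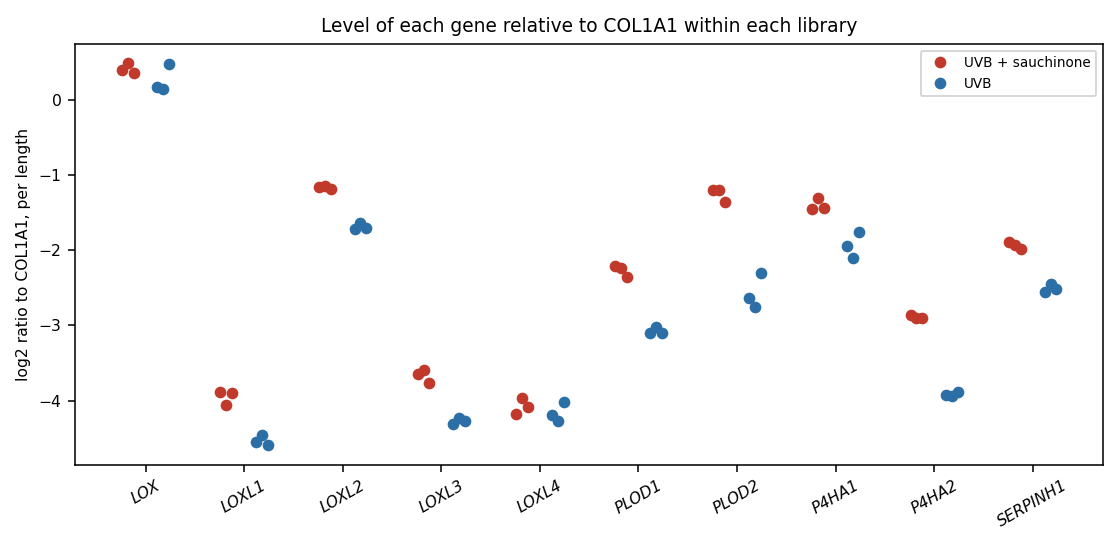
Log2 ratio of each gene to COL1A1 per length within each library, with UVB + sauchinone libraries in red and UVB libraries in blue. The groups overlap for LOX and LOXL4, and the other 8 genes lie higher with sauchinone.

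Other genes that modify collagen did not move as a group. Of 11 further genes of proline and lysine modification 4 rose, 2 fell and 5 did not pass (median 0.13). The count higher was 2 without UVB + sauchinone replicate 1, without UVB replicate 3 or with the span or GC trend removed, and the count lower was 1 without UVB replicate 3 or with the span trend removed. PPIB, the prolyl isomerase cyclophilin B, rose by 0.41 ± 0.071, or 0.17 with the span trend removed and 0.25 with the GC trend removed, both called. P3H2, a prolyl 3-hydroxylase, fell by 0.51 ± 0.11, a value that was -0.062 and uncalled when the span trend was removed. P3H1, the prolyl 3-hydroxylase that works with PPIB, did not pass (0.065, edgeR adjusted p = 0.51). The other members called, named after their values were seen, were P4HA3, P3H4 and COLGALT1, higher by 0.65, 0.29 and 0.22, and COLGALT2, at -0.71. P4HA3, the third alpha subunit, was scarce, at 7.11 CPM with sauchinone and 4.54 CPM in UVB.

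Among 12 genes of procollagen folding and export 2 rose, 1 fell and 9 did not pass (median -0.025). The count higher was 1 without UVB + sauchinone replicate 1 or 2 or UVB replicate 1 or 2, and 4 with the GC trend removed, while the count lower was 3 without UVB replicate 2 or 3 or with the span or GC trend removed. SEC23A, of the coat that carries procollagen out of the endoplasmic reticulum, fell by 0.26 and SEC13, another coat protein, rose by 0.29, and neither passed with the span trend removed (-0.15 and 0.19). With the GC trend removed SEC23A was at -0.047, uncalled, and SEC13 at 0.17, called. KDELR2, a receptor that returns chaperones such as SERPINH1 to the endoplasmic reticulum, did not pass (0.013, edgeR adjusted p = 0.89). Of 8 tested genes of propeptide cleavage 3 fell, 1 rose and 4 did not pass (median -0.12). ADAMTS2, the N-propeptidase of types I and III procollagen, fell by 1.33 ± 0.082, to 37.0 ± 0.65 CPM with sauchinone, against 92.7 ± 2.41 CPM in UVB, and its value was -0.66, still called, with the span trend removed. FURIN, a proprotein convertase, rose by 0.40 ± 0.090, a value that was 0.21 with the span trend removed and 0.14, uncalled, with the GC trend removed (edgeR adjusted p = 0.060). TLL2, a relative of the C-propeptidase BMP1, did not pass (-0.097, edgeR adjusted p = 0.80).

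Genes that supply copper to lysyl oxidases, hold them on the matrix or encode elastin fell in 7 of 9 cases and rose in none (median -0.43), and 4 were called lower once the trend with span was removed. ELN, the elastin gene, fell by 2.02 ± 0.15, to 6.47, 5.53 and 5.23 CPM in UVB + sauchinone replicates 1, 2 and 3, against 22.9, 28.9 and 18.4 CPM in UVB replicates 1, 2 and 3. FBN1, of microfibrils, fell by 0.75 ± 0.067, a value that was -0.082 and uncalled with the span trend removed. SLC31A1, the copper importer, did not pass (0.083, edgeR adjusted p = 0.38), but was called higher, at 0.21, with the GC trend removed.

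The other known hypoxia targets moved both ways, with more of them higher. Of 22 tested, 12 rose, 5 fell and 5 did not pass, with a median log2 fold change of 0.35. With the span trend removed 10 were called higher and 6 lower. Of the 4 enzyme genes named above as such targets, PLOD2 and P4HA2 were higher and LOX and P4HA1 lower. Whether the remaining enzyme genes are such targets was not examined. ANGPTL4, a lipase inhibitor, rose by 1.98 ± 0.16 to 11.2 CPM, against 2.85 CPM in UVB, and TPI1, a glycolytic enzyme, rose by 0.77 ± 0.080. Their values were 1.77 and 0.53, both still called, with the span trend removed. SLC2A1, the glucose transporter GLUT1, did not pass (0.036, edgeR adjusted p = 0.79). Of 7 genes of the hypoxia-inducible factors and the proteins that limit them, 2 fell, 1 rose and 4 did not pass. HIF1A, the oxygen-regulated alpha subunit, averaged 566.1 ± 13.3 CPM with sauchinone and 889.8 ± 94.5 CPM in UVB, a log2 fold change of -0.65 ± 0.074, which was -0.41 with the GC trend removed and still called. EPAS1, which encodes HIF-2 alpha and is named after its value was seen, was the other to fall, at -0.25. It was not called lower with the span trend removed, where HIF1A kept its call at -0.63. VHL, of the ubiquitin ligase that removes these factors, rose by 0.40 ± 0.099, a value that was 0.19 and uncalled with the span trend removed, and HIF1AN, an asparaginyl hydroxylase, did not pass (0.019, edgeR adjusted p = 0.85), but was called higher, at 0.28, with the exonic size trend removed. Factor activity was not measured.

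**Figure D5:**
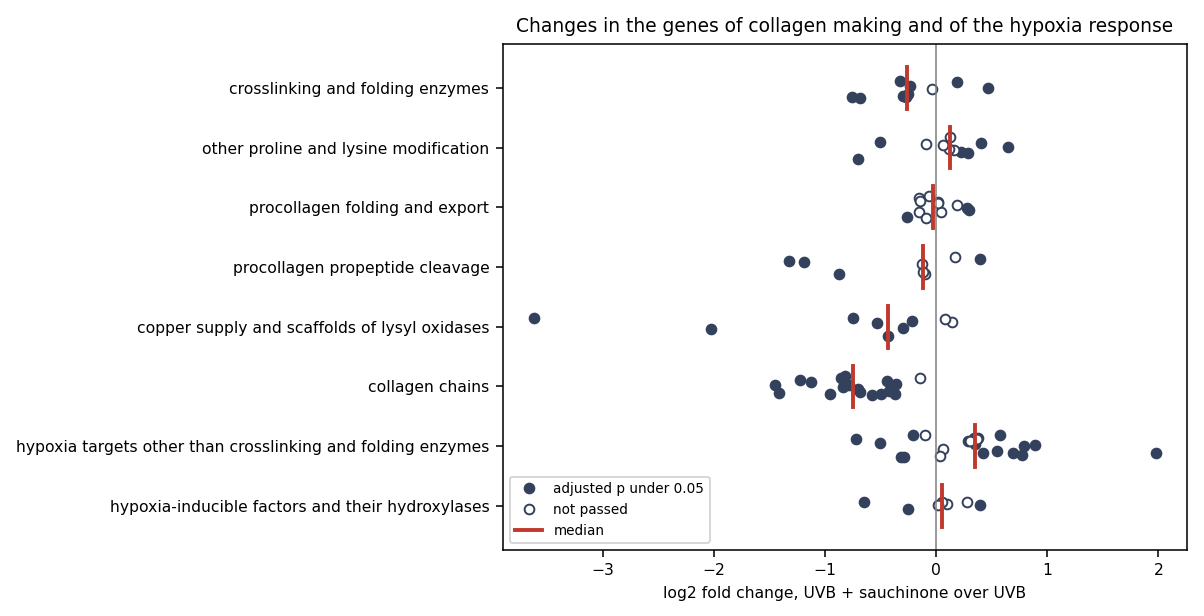
Log2 fold change, UVB + sauchinone over UVB, of every tested gene in 8 lists, filled where the edgeR adjusted p is under 0.05, with the median of each list in red. Collagen chains centre on -0.74, the 10 crosslinking and folding enzymes on -0.26 and the hypoxia targets on 0.35.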

How the data were processed

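RNA from 6 libraries was analysed, 3 per group, assigned by the sample titles. The authors deposited raw counts per gene and library and FPKM values, per the file headers. Recomputing FPKM from each count, the exonic size and the library total gave the deposited value within 0.006 for 100% of entries, so only the counts were tested and FPKM served to compare genes per length. The genome build was GRCh38, per the submitters' processing notes. Which aligner, counter and annotation release were used, and whether counting used strand, is not given in the sources used here. Per the labels' protocols, libraries were strand-specific, and either poly(A) selection or ribosomal RNA depletion came first, with no statement of which.

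Counts were tested with edgeR 4.0.16 in R 4.3.3: filterByExpr (15704 genes), TMM, quasi-likelihood test, no covariates, two-sided, Benjamini-Hochberg adjustment over all genes tested, threshold 0.05. Standard errors are the fold change divided by the root of F. The fit was tested on simulated data. DESeq2 1.42.0 and limma 3.58.1 (voom) were alternatives, beside other scalings and filters, each library left out, a replicate block, and per-library lowess offsets for span, exonic size or GC content (GENCODE 29 transcripts, 98.2% of tested genes). The 10 genes, the lists and the alternatives were chosen with earlier results of these data known. Named are the 10 genes, COL1A1, and from each list the 2 smallest and the largest p, with others as stated. Promoter sequences are from RefSeq. At this depth 3 counts correspond to 0.130 to 0.143 CPM, a floor that covers counting error only. One further marker list is not reported here.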

Additional observations from a re-analysis of the deposited data

How the results depend on the processing

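Over 16 alternatives the 10 genes gave 160 values. The call and direction held in 141 of them, a call was lost in 18 and gained in 1, and no called value changed sign. LOX, LOXL4, PLOD2 and SERPINH1 kept their calls at every setting run, with log2 fold changes of -0.87 to -0.53, -0.94 to -0.69, 0.43 to 0.77 and -0.50 to -0.20. LOXL2 lost its call only with the span trend removed and P4HA1 only with the span or GC trend removed. The number of the 10 genes called higher was 2, and 1 with no filter on low counts or with the replicate block, where P4HA2 had an adjusted p of 0.067 and 0.052. With 1 library left out it was 1 to 2, and the number called lower was 5 to 7. Calls over all genes were 6718 to 8269, against 7786. COL4A2 was reversed, at 0.43 with the span trend and 0.20 with the exonic size trend removed, for which the cause was not tested. Replicate numbers did not pair the libraries: same-numbered libraries deviated from their group means with correlations of -0.078 to 0.0072, and 0 of 6 correlated best with its own number. With the replicate block 7280 genes were called, 6 of the 10 genes were lower (LOXL1 lost its call, adjusted p = 0.071) and 1 was higher. No fit at reduced depth was run.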
